A study of Mus musculus with 12 samples.

Results

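The comparison set tumours labelled as treated with IL-10-Fc against tumours labelled as treated with an antibody to CSF1R (aCSF1R). These are the single components of the fusion protein BF10, which joins interleukin-10 to the CSF1R antibody. The members were chosen by the treatment named for each sample, which gave 3 IL-10-Fc and 3 aCSF1R libraries, 6 of the 12 in the series. Of the 55401 genes in the deposited table, 15707 reached at least 1 scaled FPKM in at least 3 of the 12 libraries and were tested.

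All samples are labelled as orthotopic oral tumours, grown from MTC-Q1 mouse oral cancer cells injected into C57BL/6 mice, with dosing begun at a tumour volume of 100 mm3. The dosing schedule is given as 4 doses in the description of the series and as 6 in the treatment protocol. The IL-10-Fc group received a recombinant fusion of interleukin-10, human according to the study's methods, with an Fc fragment, and the aCSF1R group received the antibody alone. The control group (Ctrl-IgG) received the control isotype IgG1-Fc and the fourth group received BF10. Neither sex nor age is stated in the labels, and no label ties a library to a separate animal, so p-values measure the spread between these samples only.

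CSF1R is the receptor through which the growth factors CSF1 and IL-34 keep macrophages alive, and antibodies that block it are used to remove macrophages from tumours. IL-10 binds a receptor made of Il10ra and Il10rb chains and signals through the transcription factor STAT3. It restrains cytokine release and antigen presentation by macrophages, and it can also stimulate activated CD8+ T lymphocytes as well as natural killer (NK) cells.

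The libraries labelled IL-10-Fc carried a transcript at odds with their strain label and differed from the aCSF1R libraries in sex-linked and keratin transcripts. This bears on every value below. The study also sequenced tumours of another model, 4T1 breast cancer cells in BALB/c mice, and whether any library here came from that model was not tested. H2-Ea, a class II gene that C57BL/6 mice are known not to transcribe because of a promoter deletion, stood at 2413, 2905 and 532 scaled FPKM in the 3 IL-10-Fc libraries. In the aCSF1R libraries it stood at 0.0591, 0.138 and 0.0351, and in the Ctrl-IgG libraries at no more than 0.233. The gene lies at chr17:34341959-34344645 on the minus strand in GRCm38, where the annotation calls it a polymorphic pseudogene. It belongs to a list of 4 strain-dependent genes, of which 2 were tested. Of these, H2-Ea was called higher in IL-10-Fc and the other was not called, so the strain difference rests on H2-Ea. Xist, the RNA that coats the inactive X chromosome of female cells, stood at 39.5, 39.7 and 16.2 in IL-10-Fc and at no more than 0.0324 in aCSF1R. Eif2s3y, a translation factor gene of the Y chromosome, was listed at 0 in all 3 IL-10-Fc libraries and stood at 4.37, 5.74 and 3.71 in aCSF1R, and Ddx3y, a Y-linked RNA helicase, showed the same split (0 against 2.62, 3.69 and 2.15).

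The keratins split the libraries too. Krt8 and Krt18, which pair to form the filaments of simple epithelium, stood at 284 to 545 and at 443 to 564 scaled FPKM in IL-10-Fc and at no more than 0.149 and 0.0675 in aCSF1R. Keratins of the stratified squamous lining of the mouth did not mark either group as a whole: Krt6a was high in aCSF1R replicates 1 and 2, reaching 294 in the latter, but stood at 0.0965 in replicate 3 and at no more than 0.0663 in IL-10-Fc. The 3 BF10 libraries lay with IL-10-Fc for H2-Ea, Krt8 and Krt18, and the 3 Ctrl-IgG libraries lay with aCSF1R. Treatment therefore cannot be told apart from these strain-dependent, sex-linked and epithelial differences, and the groups are named below by their labels only.

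**Figure D1:**
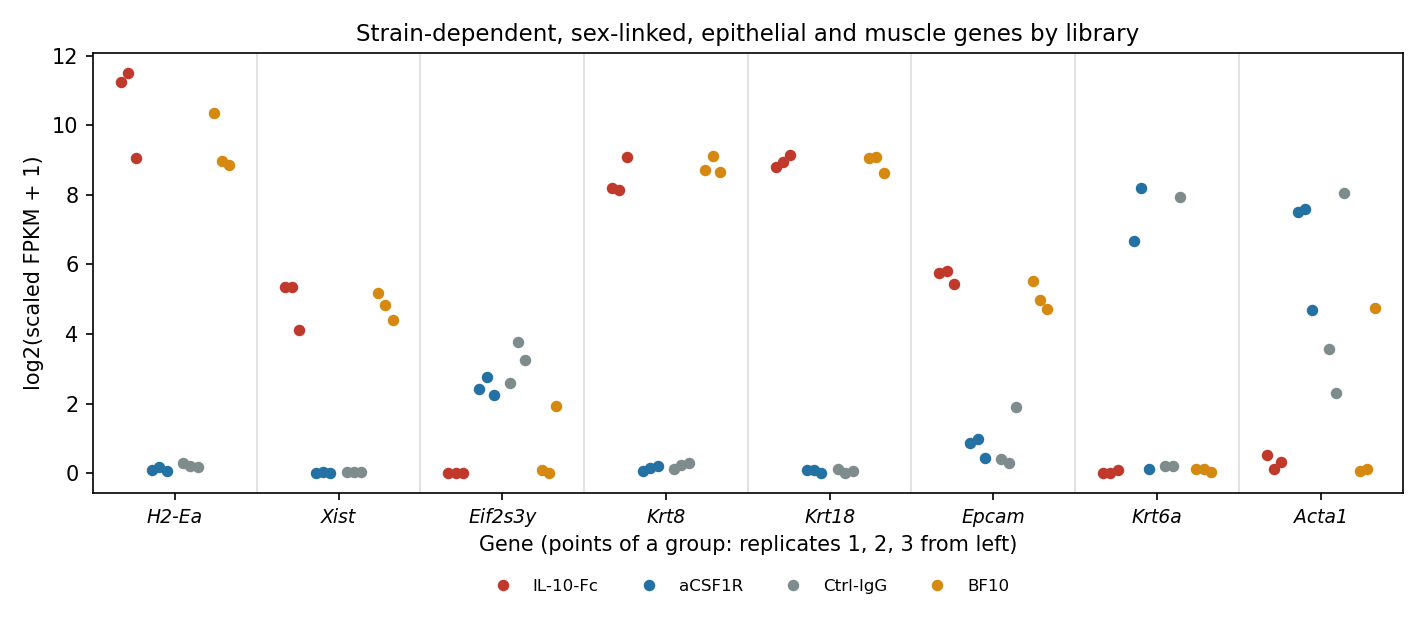
Level of 8 genes in each of the 12 libraries, as log2(scaled FPKM + 1) on the vertical axis; each point is 1 library and colours mark the 4 treatment labels. H2-Ea, Xist, Krt8 and Krt18 were high under the labels IL-10-Fc and BF10 and near 0 under aCSF1R and Ctrl-IgG, while Krt6a and the muscle gene Acta1 were highest in aCSF1R replicates 1 and 2 and Ctrl-IgG replicate 3.

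Within the IL-10-Fc group, replicates 1 and 2 stood apart from replicate 3. Their FPKM sums were 951051 and 976950 against 655855 in replicate 3 and 657090 to 695148 in aCSF1R, and genes encoded in mitochondria took 9.04% and 7.69% of the sum, compared with 3.04% to 3.61% in the 4 remaining libraries. In the fifth of genes with the lowest GC content, values lay 0.517 and 0.744 log2 units above the 12-library mean in these 2 libraries, and 0.305 below it in IL-10-Fc replicate 3. Counts are therefore also given with IL-10-Fc replicate 3 alone in its group. The sample titles carry number codes of unstated meaning, whose first number is 2 for IL-10-Fc replicates 1 and 2, 3 for aCSF1R replicates 1 and 2, and 6 for replicate 3 of both groups. FPKM values carry no read counts, so the depth behind a single value is unknown. Judged by the smallest step seen among low values, the relative depth of the 6 libraries lay between 0.909 and 1.1 with aCSF1R replicate 1 set to 1, from 34 to 123 short genes in each of the 5 others. Ratios far from 1 were left out before this estimate, so it could not have shown a library of much lower or higher depth.

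Between the groups, 5974 genes (38.0% of those tested) passed an adjusted p of 0.05 and a 1.5-fold difference, of which 2899 (18.5%) were higher and 3075 (19.6%) lower in IL-10-Fc. These shares are the background against which each group of genes below is read. The libraries of the groups did not overlap for 53.8% of all genes tested. Differences are given as the mean of IL-10-Fc minus the mean of aCSF1R on the scale log2(scaled FPKM + 1), with the standard error (SE) of the limma fit and the p-value adjusted by Benjamini-Hochberg over all genes tested. The direction of the whole table depended on the scaling between libraries. Without scaling 1732 of 15813 genes were called higher and 4937 lower, and with scaling by the library sum 1368 and 5409 of 16823. The median of all genes was then -0.51 and -0.75 instead of 0.02. Without IL-10-Fc replicate 3, 4587 of 15555 genes were called higher and 4325 lower. A list count under such a setting is read against the count of all genes in the same setting. With IL-10-Fc replicate 3 alone in its group, 1387 genes (9.08%) were called higher and 1078 (7.06%) lower, and 2261 of these 2465 calls were among the 5974, with 0 called in the opposite direction. A fit with a term that set libraries of a high first title number apart called 7581 genes, 3856 of them higher, and included all 5974. In both groups replicate 3 alone had a high number, so this term could not move the differences, only their standard errors. It is therefore no check of what the title codes stand for.

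**Figure D2:**
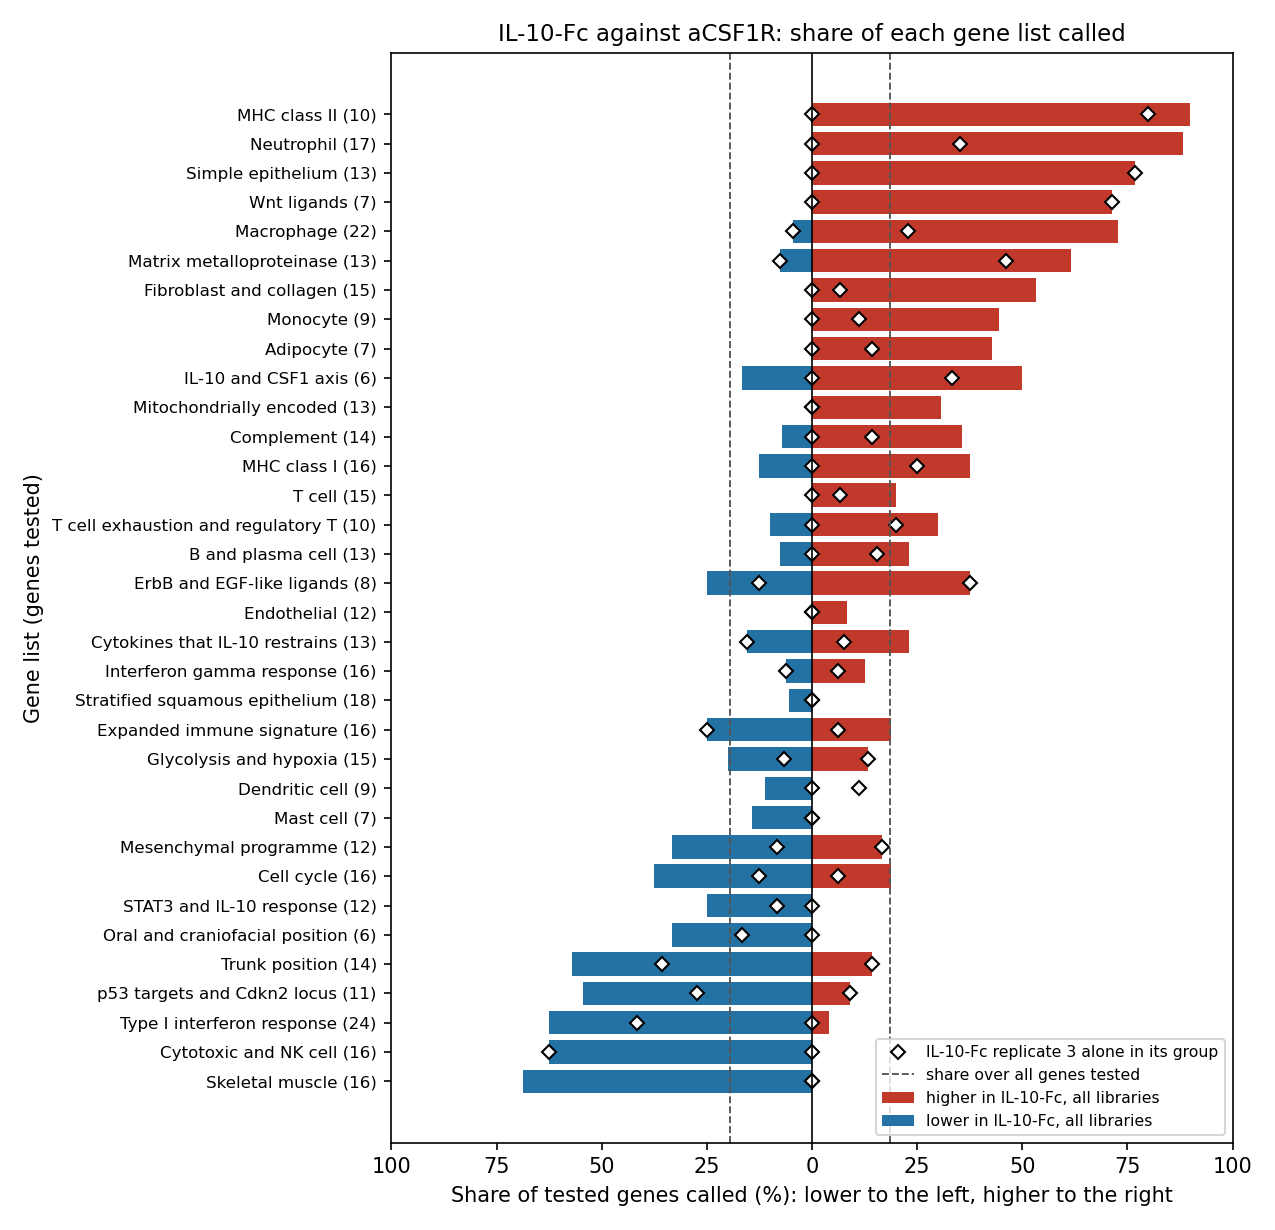
Share of the tested members of each gene list called higher (right of 0) or lower (left of 0) in IL-10-Fc than in aCSF1R, in percent; filled bars are from all libraries, open diamonds the calls, over the same genes, with IL-10-Fc replicate 3 alone in its group, and dashed lines mark the shares over all genes tested, 18.5% higher and 19.6% lower. The dashed lines come from all libraries and are no background for the diamonds. Neutrophil, MHC class II, simple epithelium and macrophage lists lay to the right, and cytotoxic, type I interferon, muscle and Hox lists to the left.

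The receptor and ligands of the treatments came first. Csf1r, the target of the antibody, stood at 20.2, 19.7 and 46.0 scaled FPKM in IL-10-Fc and at 5.83, 6.59 and 6.51 in aCSF1R. All IL-10-Fc libraries were above all aCSF1R libraries, with a log2 difference of 1.91 ± 0.54 (SE, adjusted p = 0.0174), and IL-10-Fc replicate 3 was the highest. The Ctrl-IgG libraries, at 7.37, 8.22 and 18.5, reached from just above the aCSF1R values to just below the IL-10-Fc values. In the BF10 libraries Csf1r stood at 15.6, 70.5 and 56.7, all above the aCSF1R values. The call of Csf1r needed the scaling between libraries, since without scaling its difference was 1.32 (adjusted p = 0.137) and with scaling by the library sum 1.05 (adjusted p = 0.316). Il34, the ligand of CSF1R that is made largely by epithelial cells, was 1.41 ± 0.24 higher (adjusted p = 0.00132), at 18.3 to 27.5 against 6.91 to 9.22, and it too was not called without scaling (0.81). Csf1, the other ligand, did not pass, with 18.3, 20.6 and 81.4 in IL-10-Fc and 28.5 to 34.9 in aCSF1R, and its groups overlapped.

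Mouse Il10 itself stood at 4.23, 3.89 and 1.64 in IL-10-Fc and at 0.701, 0.543 and 1.1 in aCSF1R, a log2 difference of 1.21 ± 0.29 (adjusted p = 0.00846). The injected protein brings no transcript, so these values belong to the animals' own gene. With IL-10-Fc replicate 3 alone in its group the difference of Il10 was 0.58 and not called. Of the receptor chains, Il10rb was lower by 0.83 ± 0.29 (adjusted p = 0.0445) and Il10ra did not pass (0.72 ± 0.27, adjusted p = 0.0531). Il10rb rested on replicates 1 and 2, at 10.5 and 9.86 against 20.5 in replicate 3 and 23.5 to 24.2 in aCSF1R.

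Of 12 tested genes of STAT3 and the IL-10 response, 0 were called higher and 3 lower, with a median log2 difference of -0.58 (0.02 over all genes), a share of lower calls not far from the 19.6% of all genes. Without IL-10-Fc replicate 3, 6 were lower, when 4325 of all 15555 genes tested were lower too. With that library alone in its group the list median was 0.15. Hmox1, the haem-degrading enzyme that IL-10 induces in macrophages, stood at 22.5, 27.5 and 52.3 in IL-10-Fc and at 223, 183 and 281 in aCSF1R. It was lower by 2.78 ± 0.41 (adjusted p = 0.00045) and the groups were far apart, with Ctrl-IgG at 129 to 182. Il1rn, the antagonist of IL-1, and Etv3, a repressor, were lower by 0.87 ± 0.29 and 0.63 ± 0.22. Stat3 and its feedback inhibitor Socs3 did not pass, and for both the groups overlapped.

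Among 13 tested cytokine and mediator genes that IL-10 is known to restrain, 3 were called higher and 2 lower, not far from the 18.5% and 19.6% of all genes. Without scaling 3 were higher and 4 lower, and with scaling by the library sum 3 and 5. Il1b, the inflammatory cytokine, stood at 315, 387 and 65.9 in IL-10-Fc against 15.3, 22.2 and 29.5 in aCSF1R (3.16 ± 0.72, adjusted p = 0.0061). Il1a and Il23a, cytokines of the IL-1 and IL-12 families, were higher by 3.23 ± 0.56 and 3.31 ± 0.45. Replicates 1 and 2 carried much of these differences: with replicate 3 alone in the group, Il23a was called and Il1a and Il1b were not. Ccl2, which draws monocytes out of the blood, went the other way, with 68.8, 124 and 23.4 in IL-10-Fc against 532, 517 and 611 in aCSF1R (-3.21 ± 0.69, adjusted p = 0.00462). Tnf was lower by 0.88 ± 0.25, and Il6, Cxcl1, Cxcl2, Ccl3, Ptgs2 and Nos2 did not pass.

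Macrophage genes were higher in IL-10-Fc as a group, with 16 of 22 called higher and 1 lower and a median log2 difference of 1.72. In bulk tumour RNA, fewer cells of a type and less RNA per cell cannot be told apart. C1qa, a chain of complement C1q that tissue macrophages make, stood at 571, 561 and 259.8 in IL-10-Fc and at 54.8, 52.8 and 48.5 in aCSF1R (3.05 ± 0.33, adjusted p = 8.45e-05). All IL-10-Fc values were above the Ctrl-IgG values of 104, 162 and 193, and those were above all aCSF1R values. The BF10 libraries, whose protein includes the CSF1R antibody, stood at 395, 311 and 314, also above the Ctrl-IgG values. C1qc (3.53 ± 0.55) and C1qb (1.92 ± 0.27) followed, and so did Trem2, a lipid receptor of tumour macrophages, at 16.1, 18.1 and 20.7 against 4.16, 4.0 and 5.39 (1.81 ± 0.21, adjusted p = 0.000113).

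Mrc1, the mannose receptor, was higher by 2.89 ± 0.50, Arg1, the arginine-degrading enzyme, by 2.74 ± 0.43, Apoe by 1.83 ± 0.53 and Adgre1, which encodes F4/80, by 1.47 ± 0.47. Cd68, a lysosomal protein of macrophages, did not pass (0.03 ± 0.28) and its groups overlapped, and Mertk, Cd163, Siglec1 and Lyve1 did not pass either. The single macrophage-list gene called lower was Gpnmb, a glycoprotein that is also made by tumour and pigment cells, at 1.01, 0.521 and 1.07 against 81.6, 116 and 81.1 (-5.64 ± 0.66, adjusted p = 0.000117). With IL-10-Fc replicate 3 alone in its group, 5 of the 22 were called higher (C1qa, C1qb, C1qc, Trem2 and Arg1) and Gpnmb lower. With scaling by the library sum 10 were higher and 1 lower, Trem2 and Adgre1 being among those lost. Of 4 tested genes that the study listed as lowered by aCSF1R, 3 were called higher in IL-10-Fc (Clec4a2, Dpep2 and Slamf9), but the study drew that list from these same samples, so it is no independent evidence of direction.

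Monocyte genes showed a mixed order, with 4 of 9 called higher and 0 lower. Ccr2, the receptor of Ccl2, stood at 144, 108 and 19.0 in IL-10-Fc against 5.61, 5.53 and 8.7 in aCSF1R (3.19 ± 0.72, adjusted p = 0.00575), opposite in direction to its ligand. F13a1, a coagulation factor of monocytes, was higher by 3.10 ± 0.46 and Cx3cr1 by 1.82 ± 0.53. Cx3cr1 was not called without scaling (1.51, adjusted p = 0.0749) or with scaling by the library sum (1.58, adjusted p = 0.12). With IL-10-Fc replicate 3 alone in its group Ccr2 differed by 1.42, F13a1 by 2.14 and Cx3cr1 by 2.47. The list median was then 0.89 instead of 1.54. Ly6c2, the surface marker of inflammatory monocytes, did not pass (-0.19 ± 0.69), since its values of 76.7, 53.5 and 11.3 lay on both sides of 30.5, 30.1 and 77.5. Of 9 tested dendritic cell genes 0 were called higher and 1, the migration receptor Ccr7, lower by 1.25 ± 0.42.

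Of the macrophage, monocyte, dendritic, mast and neutrophil lists, neutrophil genes had the highest median, with 15 of 17 called higher, 0 lower and a median log2 difference of 3.19. S100a8 stood at 2705, 1823 and 373 in IL-10-Fc and at 78.5, 133 and 72.1 in aCSF1R (3.74 ± 0.90, adjusted p = 0.0083), and its partner S100a9 differed by 4.39 ± 0.97. Both encode the calprotectin subunits that fill the neutrophil cytosol. IL-10-Fc replicates 1 and 2 were far above the aCSF1R libraries and replicate 3 was the lowest of its group but did not overlap them. Ngp, a granule protein of neutrophil precursors, stood at 40.4, 7.25 and 29.6 against no more than 0.0263 in aCSF1R (4.41 ± 0.59, adjusted p = 0.000253).

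Mmp9, the gelatinase of neutrophil granules, stood at 104, 86.6 and 208 against 4.29, 4.16 and 7.2 (4.35 ± 0.49, adjusted p = 9.79e-05). Ltf, lactoferrin, was higher by 3.19 ± 0.44, Retnlg by 3.68 ± 0.94 and Stfa2, a stefin, by 5.42 ± 0.62, although the Stfa genes are near-identical copies whose fragments may be split between them. Csf3r and Cxcr2, the receptors for G-CSF and for neutrophil-drawing chemokines, did not pass and their groups overlapped. Csf3, which encodes G-CSF and is outside the list, stood at 97.9, 291 and 68.6 in IL-10-Fc and at no more than 0.672 in aCSF1R (6.28 ± 0.69, adjusted p = 8.62e-05). With replicate 3 alone in the group 6 of the 17 were called higher.

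The classical and non-classical class II genes were higher almost throughout, with 9 of 10 called higher, 0 lower and a median of 2.46. H2-Aa, the alpha chain of the I-A molecule, stood at 2516, 2687 and 768 in IL-10-Fc and at 155, 146 and 91.4 in aCSF1R (3.75 ± 0.56, adjusted p = 0.000517). H2-Ab1 and H2-Eb1, the beta chains of I-A and I-E, were higher by 2.85 ± 0.40 and 2.86 ± 0.31, and for these IL-10-Fc replicate 3 was the highest library. Ciita, the transactivator that class II promoters need, stood at 8.28, 7.5 and 12.6 against 1.65, 2.07 and 0.781 (2.07 ± 0.27, adjusted p = 0.000237).

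H2-DMb2, a beta chain of the peptide-loading molecule H2-M, stood at 59.6, 52.7 and 87.6 against 0.574, 1.09 and 0.693 (5.22 ± 0.27, adjusted p = 1.02e-06). Its neighbour H2-DMb1 differed by 0.94 ± 0.32 and H2-DMa by 1.24 ± 0.29, and fragments of the 2 DMb copies may be split between them. Cd74, the invariant chain, was higher by 1.68 ± 0.50. H2-Oa did not pass and its groups overlapped. With IL-10-Fc replicate 3 alone in its group 8 of the 10 were called higher, the exception among the 9 being H2-DMb1. Without scaling 6 and with scaling by the library sum 5 were called higher, with 0 lower in both, and the difference of H2-DMb1 was then 0.31 and -0.0013. These genes also differ between inbred strains in sequence, and what the H2-Ea difference above contributes to them was not tested.

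Class II promoters share a Y box, and the promoters of H2-Aa and H2-Eb1 are shown because both genes were far higher in IL-10-Fc. They cover chr17:34287774-34288073 (minus strand) and chr17:34305617-34305916 (plus strand) in GRCm38.p6, from 250 bases before to 50 after the start in RefSeq, printed 5′ to 3′ on the gene's strand with the Y box letters in capitals.
H2-Aa: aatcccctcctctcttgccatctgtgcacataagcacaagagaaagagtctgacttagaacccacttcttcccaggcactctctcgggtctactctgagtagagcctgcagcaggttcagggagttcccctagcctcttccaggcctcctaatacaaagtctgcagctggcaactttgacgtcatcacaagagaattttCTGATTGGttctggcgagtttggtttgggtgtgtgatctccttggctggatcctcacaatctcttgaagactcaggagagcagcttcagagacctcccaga
H2-Eb1: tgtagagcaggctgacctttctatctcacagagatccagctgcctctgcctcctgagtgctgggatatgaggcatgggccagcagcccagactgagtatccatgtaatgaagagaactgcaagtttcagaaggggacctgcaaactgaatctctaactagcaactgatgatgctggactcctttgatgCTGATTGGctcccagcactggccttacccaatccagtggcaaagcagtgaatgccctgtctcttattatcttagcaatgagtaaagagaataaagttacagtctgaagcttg

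The letters searched were CTGATTGG on either strand, which begin 51 bases before the start of H2-Aa and 62 before that of H2-Eb1. They occur in 4.1% of 32851 RefSeq promoters of the same length and in 4 of the 8 class II genes that have one there (H2-Aa, H2-Eb1, H2-Eb2 and H2-Oa). H2-Eb2 was too low to be tested and H2-Oa was not called, while H2-DMa, H2-DMb1 and H2-DMb2 were called higher without these letters, so called genes stood on both sides of this split.

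Class I genes moved in both directions, with 6 of 16 called higher and 2 lower. H2-K1, a classical class I chain, did not pass (-0.02 ± 0.33) with 2447 to 3541 scaled FPKM against 2775 to 2870, and H2-D1 did not pass either. The non-classical H2-Q6 stood at 161, 145 and 338 against 15.3, 20.2 and 17.6 (3.43 ± 0.36, adjusted p = 6.99e-05), with H2-Q7 (1.75 ± 0.38) and H2-T23 (1.96 ± 0.60) also higher. These copies are near-identical and differ between strains, so their single values are uncertain. Tapbp and Tap1, which load and carry peptides, were lower by 1.07 ± 0.31 and 0.88 ± 0.27, while the immunoproteasome subunits Psmb8 and Psmb9 were higher by 1.00 ± 0.23 and 0.87 ± 0.25. Without scaling and with scaling by the library sum Psmb9 was not called. The balance of the class I list then turned to 1 higher and 4 lower in both, settings that also moved all genes towards lower calls. Without aCSF1R replicate 1 or replicate 2 it gave 3 higher and 0 lower.

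Genes induced by type I interferon were lower in IL-10-Fc as a group, with 1 of 24 called higher, 15 lower and a median of -1.52. Rsad2, the antiviral enzyme viperin, stood at 2.42, 3.03 and 3.29 in IL-10-Fc and at 232, 218 and 172 in aCSF1R (-5.73 ± 0.69, adjusted p = 0.000142). Isg15, a ubiquitin-like modifier, stood at 65.1, 56.1 and 55.5 against 306, 249.7 and 302 (-2.26 ± 0.32, adjusted p = 0.000375). For both genes the 3 IL-10-Fc values lay close together and the Ctrl-IgG values, 140.2 to 196 for Rsad2 and 174 to 347 for Isg15, were of the order of the aCSF1R values.

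Oasl1 was lower by 4.17 ± 0.48, Cmpk2, the neighbour of Rsad2, by 2.76 ± 0.25, Oas3 by 2.66 ± 0.42 and Ddx58, which encodes the RNA sensor RIG-I, by 1.75 ± 0.21. The factors Irf7 and Stat2 were lower by 1.74 ± 0.40 and 2.27 ± 0.50. The list did not move as a block: Ifit1, Ifit2 and Ifit3, which block translation of foreign RNA, did not pass, and for each the IL-10-Fc libraries 1 and 2 were above or among the aCSF1R values and replicate 3 below them. Ifit1, for example, stood at 69.5, 77.9 and 9.55 against 53.2, 38.7 and 55.7. With replicate 3 alone in the group 10 of the 24 were called lower and 0 higher, and after correction for GC content and length 17 were lower and 1 higher, when 21.3% of all genes tested were lower and 21.1% higher.

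Promoters of Isg15 and Rsad2 are shown as genes of this list with a smaller and a larger difference. They cover chr4:156200769-156201068 and chr12:26456403-26456702, both on the minus strand in GRCm38.p6, with the same layout, and the capitals mark the core of the interferon-stimulated response element.
Isg15: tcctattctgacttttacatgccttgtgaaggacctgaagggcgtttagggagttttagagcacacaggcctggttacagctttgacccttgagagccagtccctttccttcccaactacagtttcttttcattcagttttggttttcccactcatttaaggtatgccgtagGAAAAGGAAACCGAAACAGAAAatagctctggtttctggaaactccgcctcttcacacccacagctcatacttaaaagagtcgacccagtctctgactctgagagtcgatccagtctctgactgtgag
Rsad2: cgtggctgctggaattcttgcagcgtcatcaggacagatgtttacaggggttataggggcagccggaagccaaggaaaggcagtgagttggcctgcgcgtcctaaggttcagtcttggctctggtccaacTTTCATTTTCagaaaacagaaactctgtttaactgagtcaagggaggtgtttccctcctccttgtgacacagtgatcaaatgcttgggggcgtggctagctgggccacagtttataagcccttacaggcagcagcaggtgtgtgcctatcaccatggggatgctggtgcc

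The core searched was GAAA, any 2 bases and a second GAAA, on either strand. Isg15 holds 3 overlapping matches that begin 78, 72 and 66 bases before its start, and Rsad2 holds 1 on the opposite strand that begins 120 bases before its start. The core occurs in 3.44% of all 32851 promoters and in 11 of the 18 list genes with a promoter there (61.1%). Of those 11 genes 7 were called, and of the 7 without the core 5 were called, among them Oasl1 and Cmpk2. Ifit1 and Ifit3 hold the core and were not called.

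The genes of the interferon gamma response gave a different count, with 2 of 16 called higher and 1 lower. Without IL-10-Fc replicate 3, 8 were higher and 1 lower, when 4587 of all 15555 genes tested were higher and 4325 lower. Gbp4, a guanylate-binding protein, stood at 221, 284 and 91.2 against 18.9, 23.6 and 18.3 (3.09 ± 0.48, adjusted p = 0.000623) and Gbp7 was higher by 0.97 ± 0.24. Cxcl10, a chemokine for activated T cells that also responds to type I interferon, stood at 70.4, 49.5 and 39.2 against 582, 489 and 496 (-3.31 ± 0.53, adjusted p = 0.00076). Irf1, Igtp, Irgm1, Gbp5 and Ido1 did not pass and their groups overlapped. The balance turned the other way with the scaling, to 1 higher and 4 lower without scaling and 1 higher and 6 lower with scaling by the library sum. All genes tested also moved towards lower calls in both. Cxcl9, which draws the same T cells as Cxcl10, did not pass (1.64 ± 0.63), with 350.2, 331 and 63.1 against 56.2 to 67.9. Ccl5, made by T cells and NK cells, was lower by 2.29 ± 0.29 (adjusted p = 0.000192).

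**Figure D3:**
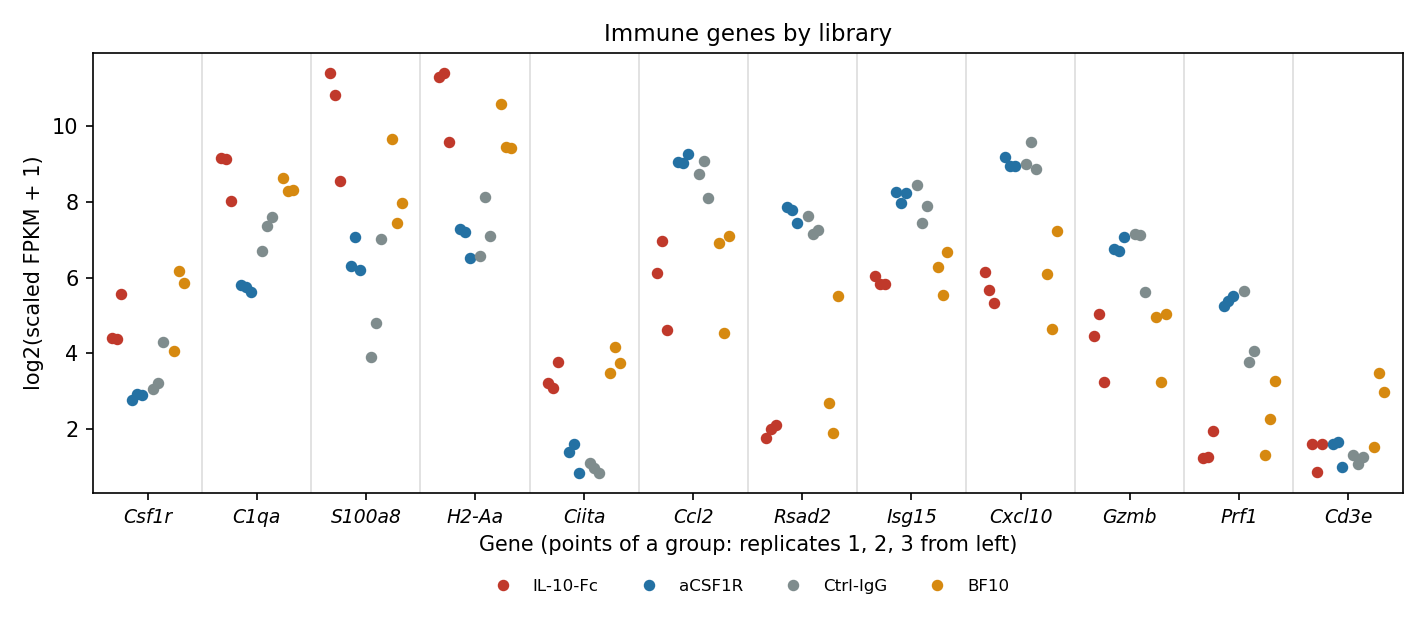
Level of 12 immune genes in each of the 12 libraries, as log2(scaled FPKM + 1); each point is 1 library, coloured by treatment label. The IL-10-Fc libraries were above the aCSF1R libraries for Csf1r, C1qa, S100a8, H2-Aa and Ciita and below them for Ccl2, Rsad2, Isg15, Cxcl10, Gzmb and Prf1, while Cd3e overlapped.

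Cytotoxic and NK cell genes were lower in IL-10-Fc, with 0 of 16 called higher and 10 lower and a median of -1.73. Without IL-10-Fc replicate 3, 4 were higher and 10 lower. Prf1, which encodes the pore former perforin, stood at 1.36, 1.38 and 2.82 in IL-10-Fc and at 36.8, 40.3 and 44.9 in aCSF1R (-3.90 ± 0.53, adjusted p = 0.000301). Gzmb, granzyme B, stood at 21.1, 31.6 and 8.48 against 107, 102 and 134 (-2.59 ± 0.59, adjusted p = 0.00615). Ctrl-IgG libraries reached 47.8 to 142 for Gzmb, so the IL-10-Fc values were below both other sets. Granzymes c to g were lower by 1.56 to 2.88 (Gzme and Gzmf), with the reserve that these neighbours are similar in sequence. Eomes, a transcription factor of effector and NK cells, stood at 0.529, 0.505 and 0.464 against 4.75, 4.51 and 4.55 (-1.90 ± 0.19, adjusted p = 5.02e-05), and Nkg7, a granule protein, was lower by 1.32 ± 0.35.

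The receptors that mark the cells themselves did not pass with all libraries. Ncr1, the NK cell receptor NKp46, stood at 11.2, 5.8 and 0.967 against 2.47, 2.03 and 2.25, and Klrd1, Klrk1 and Klrb1c likewise had overlapping groups, as did Ifng. Without IL-10-Fc replicate 3, Ncr1 (1.49), Klrk1 (1.26) and Ifng (0.80) were called higher. Of 15 tested T cell genes 3 were called higher, a share near the 18.5% of all genes, and 0 lower, with a median of 0.14. Cd3e, a chain of the T cell receptor complex, stood at 2.03, 0.807 and 2.03 against 2.05, 2.17 and 1.0 (-0.07 ± 0.43), and Cd8a stood at 3.65, 4.11 and 2.71 against 2.49, 2.79 and 0.947 (0.59 ± 0.28), both not called. Cd3g (1.17 ± 0.36) and Trac (0.82 ± 0.26) were higher, and Thy1, which fibroblasts also make, by 1.15 ± 0.24. None of these 3 was called without scaling, when 0 T cell genes were higher and 2 lower, or with scaling by the library sum (0 higher and 1 lower), while 6 were higher and 0 lower without IL-10-Fc replicate 3. With IL-10-Fc replicate 3 alone in its group the 10 calls of the cytotoxic list remained 10, with 0 higher, and all 10 were the same genes.

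Checkpoint and regulatory T cell genes showed 3 of 10 higher and 1 lower. Entpd1, which encodes the ectoenzyme CD39, was higher by 0.85 ± 0.23, Ikzf2 by 1.08 ± 0.20 and Havcr2, which encodes TIM-3 and is also expressed by macrophages, by 0.65 ± 0.23. Il2ra was lower by 0.75 ± 0.22. Without scaling and with scaling by the library sum the list gave 1 higher and 4 lower, and Entpd1 and Havcr2 were not called in either. Pdcd1, Lag3, Tigit, Ctla4 and Cd274 did not pass, and Foxp3 and Tox were too low to be tested. Of the 16 genes of the study's expanded immune signature, 3 were called higher (Ciita and Cxcr6 among them) and 4 lower (Ccl5, Cxcl10, Nkg7 and Gzmb), not far from the 18.5% and 19.6% of all genes. Without IL-10-Fc replicate 3, 7 were higher and 4 lower, and with scaling by the library sum 1 and 7.

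Other leukocyte lists held few calls. Of 13 tested B and plasma cell genes 3 were higher, not far from the 18.5% of all genes, and 1 was lower. With scaling by the library sum, without IL-10-Fc replicate 1 or without aCSF1R replicate 1, 0 were higher. Jchain, which links secreted antibody, stood at 69.0, 4.04 and 5.74 against 0.421 to 0.982 (3.02 ± 0.90, adjusted p = 0.0227), and replicate 1 was far above the other 2. Pax5, a B cell factor, was lower by 2.03 ± 0.49, at no more than 0.0569 against 2.65 to 3.66, while Ms4a1, another B cell gene, was below 1 in all 6 libraries. Mast cell genes showed 1 of 7 lower (Hdc, by 0.94 ± 0.26) and 0 higher, and Cpa3 and Tpsb2 were highest in IL-10-Fc replicate 1 without passing. Of 14 complement genes 5 were higher and 1 lower, led by C1s2 at 5.76 to 7.44 against 0.0422 to 0.178 (2.76 ± 0.21, adjusted p = 9.9e-06) and Cfp, properdin (2.54 ± 0.38), with C1ra lower, at 16.0 to 42.1 against 59.1 to 66.4, and without scaling the list gave 3 higher and 2 lower.

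Epithelial genes split by type. Of 13 tested simple epithelium genes 10 were called higher and 0 lower, with a median of 2.67, and the same number was called with IL-10-Fc replicate 3 alone in its group. Krt18 differed by 8.90 ± 0.19 (adjusted p = 7.4e-10) and Krt8 by 8.34 ± 0.25 (adjusted p = 1.14e-08), and the 2 genes lie side by side at chr15:102028180-102032027 and chr15:101996698-102004482. Krt7 (7.28 ± 0.20) and Krt19 (4.37 ± 0.27) followed. Epcam, an adhesion molecule of simple epithelium, stood at 53.1, 55.5 and 42.1 against 0.819, 0.964 and 0.351 (4.91 ± 0.40, adjusted p = 1.34e-05), and Cdh1, E-cadherin, at 6.93, 9.27 and 38.0 against 2.43, 3.74 and 0.772 (2.26 ± 0.71, adjusted p = 0.028). Cdh1 was not called without scaling (1.75, adjusted p = 0.116) or with scaling by the library sum (1.58, adjusted p = 0.224). Grhl2 and Spint1 were higher by 2.04 ± 0.22 and 2.67 ± 0.44, while Esrp1, Ehf and Elf3 did not pass.

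Of 18 tested squamous genes 0 were called higher and 1 lower (Sprr1b, -3.61 ± 1.26), although the median was -3.58. Without aCSF1R replicate 3, 12 of the 18 were called lower. The aCSF1R libraries differed widely among themselves. Krt13, a keratin of the oral lining, stood at 447 and 453 in aCSF1R replicates 1 and 2, at 0.517 in replicate 3 and at 0.243, 0.892 and 0.228 in IL-10-Fc (-5.57 ± 2.35, adjusted p = 0.0786). Skeletal muscle genes shared this pattern, with the sum over 16 genes at 815 and 760 in aCSF1R replicates 1 and 2, 119 in replicate 3 and 39.6 to 55.8 in IL-10-Fc. Of these 16 genes 11 were called lower and 0 higher, among them Acta1, skeletal alpha-actin (-6.29 ± 1.53, adjusted p = 0.00859), and Myl1, a myosin light chain (-5.00 ± 1.17). With IL-10-Fc replicate 3 alone in its group 0 of the 16 were called, and without aCSF1R replicate 1 or replicate 2 each time 3.

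Mesenchymal genes were not uniform, with 2 of 12 called higher and 4 lower. S100a4, a calcium-binding protein of motile cells, stood at 7568, 11980 and 1972 against 302, 197 and 567 (4.12 ± 0.76, adjusted p = 0.00183) and Vim, vimentin, was higher by 1.43 ± 0.33. Vim was not called without scaling (0.79, adjusted p = 0.137) or with scaling by the library sum (0.47, adjusted p = 0.481). Cdh2, N-cadherin, was lower (adjusted p = 0.000426) and the repressors Snai1, Snai2 and Twist2 by 1.32 ± 0.35, 0.66 ± 0.22 and 1.02 ± 0.21, while Zeb1, Zeb2 and Twist1 did not pass. Fibroblast and collagen genes showed 8 of 15 higher and 0 lower, with Col3a1 at 996, 685 and 847 against 149.8, 171 and 256 (2.15 ± 0.46, adjusted p = 0.00427) and Postn, periostin, higher by 3.59 ± 0.92. Of these Thy1 alone was called with replicate 3 alone in the group, with scaling by the library sum 2 were called higher and 1 lower, without any 1 of IL-10-Fc replicate 1 and the 3 aCSF1R libraries 5 were called higher, and Pdgfra, Pdgfrb, Col6a1 and Sparc did not pass.

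Matrix-degrading enzymes were higher, with 8 of 13 called higher and 1 lower. Mmp3, stromelysin 1, stood at 452, 727 and 259 against 7.82, 14.2 and 6.38 (5.47 ± 0.88, adjusted p = 0.000809), and Mmp12, the macrophage elastase, at 406, 709.6 and 103 against 9.55, 6.97 and 11 (4.95 ± 0.65, adjusted p = 0.000225). Mmp10 (6.02 ± 0.48), Mmp13 (3.28 ± 0.36) and Plau, the urokinase (3.41 ± 0.28), were also higher. Mmp11, a stromal enzyme of carcinomas, went the other way, at 13.2, 11.5 and 19.8 against 171, 145 and 242 (-3.57 ± 0.41, adjusted p = 0.000111). Mmp14 and Timp2 did not pass.

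Growth factor ligands also divided the groups. Of 7 tested Wnt ligands 5 were higher and 0 lower: Wnt7b stood at 136, 103 and 84.0 against 0.937, 1.05 and 0.114 (6.02 ± 0.37, adjusted p = 2.46e-06), and Wnt7a at 2.73, 2.56 and 4.63 against 0 in all 3 aCSF1R and all 3 Ctrl-IgG libraries. Of 8 tested genes of the ErbB family and its ligands 3 were higher and 2 lower. Hbegf stood at 35.8, 42.0 and 77.2 against 5.07, 4.71 and 4.92 (3.08 ± 0.30, adjusted p = 3.86e-05), Tgfa was higher by 3.21 ± 0.47 and Areg by 1.81 ± 0.26, while Ereg and the receptor Erbb3 were lower by 1.49 ± 0.35 and 1.53 ± 0.21. Egfr and Erbb2, receptors of this family, did not pass.

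Hox genes, which keep a record of position along the body axis, were lower more often than higher, with 8 of 14 lower and 2 higher. Hoxa5 stood at 87.8, 76.5 and 49.1 in IL-10-Fc and at 3.8, 3.6 and 3.65 in aCSF1R (3.91 ± 0.32, adjusted p = 1.34e-05), whereas Hoxa9 of the same cluster stood at 1.67, 1.83 and 2.13 against 14.9, 13.2 and 17.1 (-2.48 ± 0.24, adjusted p = 3.63e-05). Hoxd10 was lower by 2.17 ± 0.28 and Hoxc9 by 1.67 ± 0.20. Of 6 tested homeobox genes of the mouth and face 2 were lower (Dlx2, -1.09 ± 0.18, and Msx1, -1.01 ± 0.21) and 0 higher. Of 3 tested genes of mammary epithelium Gata3, a luminal transcription factor, was higher by 2.39 ± 0.32, at 12.7, 16.3 and 27.3 against 2.43 to 2.73, and Esr1 by 1.10 ± 0.27.

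Endothelial genes gave 1 of 12 higher (Emcn, 1.75 ± 0.62) and 0 lower, with a median of -0.03, and Pecam1 stood at 14.2 to 15.6 against 12.5 to 17.4 (0.02 ± 0.23). Of 7 tested adipocyte genes 3 were higher (0 without aCSF1R replicate 1 or 2), and IL-10-Fc replicate 1 was far above the rest: Adipoq, adiponectin, stood at 56.8, 1.95 and 2.18 against 0.14 to 0.253. Of the salivary genes 6 of 8 were too low to be tested, and of the 2 tested Aqp5 was higher by 1.34 ± 0.23 and Amy1 did not pass. Of 5 tested erythrocyte genes 0 were called, and 4 were higher without IL-10-Fc replicate 3. Of 13 mitochondrially encoded genes 4 were called higher, 13 without IL-10-Fc replicate 3 and 0 with that library alone in the group.

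**Figure D4:**
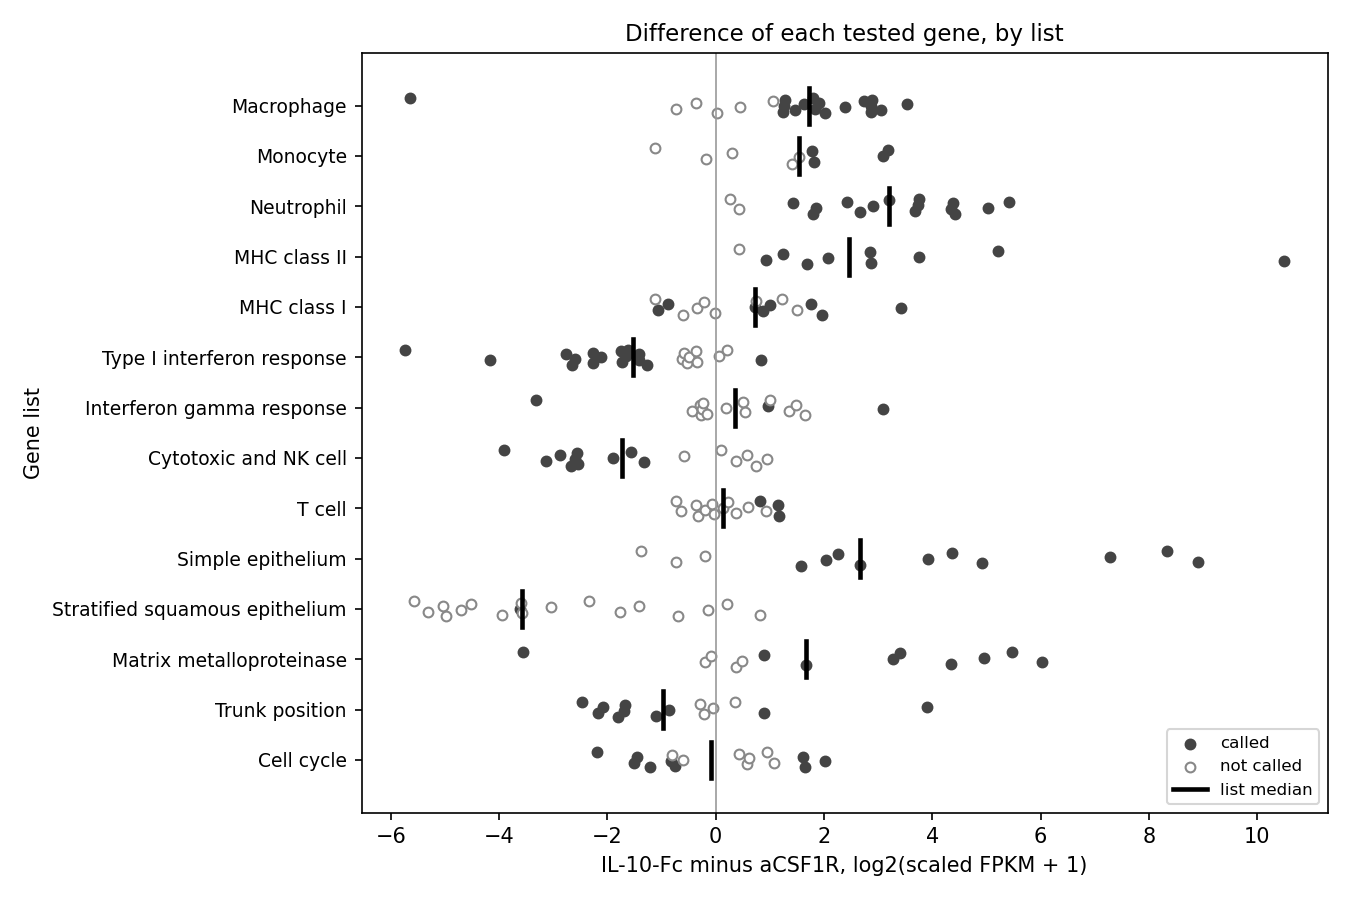
Difference of each tested member of 14 gene lists, as IL-10-Fc minus aCSF1R on the log2(scaled FPKM + 1) scale; each point is 1 gene, filled where called and open where not, and black bars mark list medians. Medians ran from -3.58 for squamous epithelium to 3.19 for neutrophil genes. Called genes lay on both sides of 0 for macrophage, MHC class I, type I interferon, interferon gamma, matrix metalloproteinase, trunk position and cell cycle genes.

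Cell cycle genes gave 3 of 16 higher, near the 18.5% of all genes, and 6 lower. Both without scaling and with scaling by the library sum they gave 0 higher and 6 lower. Ccnd1, cyclin D1, stood at 154, 187 and 473 against 66.0, 56.5 and 53.4 (2.01 ± 0.42, adjusted p = 0.00367), but the call was lost without scaling (adjusted p = 0.0754) and with scaling by the library sum (adjusted p = 0.244). Rrm2, a subunit of ribonucleotide reductase, was lower by 2.18 ± 0.32, Aurka by 1.45 ± 0.24 and Mcm5 by 1.21 ± 0.29. Mki67 and Top2a, markers of cycling cells, were higher by 1.66 ± 0.58 and 1.62 ± 0.57, but their values in IL-10-Fc replicate 3 (34.3 and 215) were close to the aCSF1R libraries (21.7 to 28.4 and 148 to 172), and neither was called with that library alone in its group.

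Of 11 genes of the p53 response and the Cdkn2 locus 6 were lower and 1 higher. Trp53, which encodes p53, stood at 7.04, 6.58 and 27.7 against 68.3, 68.9 and 51.5 (-2.40 ± 0.60, adjusted p = 0.00999). Its target Sesn2 was lower by 2.31 ± 0.32, while Cdkn1a and Mdm2 did not pass. Mtap, the neighbour of Cdkn2a, was higher by 2.34 ± 0.27, at 334, 345 and 273 against 52.7 to 67.2. Cdkn2a and Cdkn2b were lower by 1.22 ± 0.40 and 0.71 ± 0.18. Glycolysis and hypoxia genes gave 2 of 15 higher (Egln3 and Car9) and 3 lower, not far from the 18.5% and 19.6% of all genes. The lower genes were led by Slc16a3, a lactate transporter, at 19.1, 16.0 and 24.6 against 184, 191 and 167 (-3.14 ± 0.37, adjusted p = 0.000115), and Gapdh, Ldha and Vegfa did not pass. Without scaling 1 was higher and 4 lower, with scaling by the library sum 0 and 6, and Car9 was called in neither, while without IL-10-Fc replicate 3 the list gave 3 higher and 7 lower.

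Ranked by size, and limited to called genes with no overlap between the groups (37.7% of all genes tested) and a mean of at least 5 scaled FPKM on the higher side, the 12 largest rises were H2-Ea, Krt18, Krt8, Ifi202b, Gbp2b, Krt7, Tmprss11e, Syt8, Csf3, H2-Q2, Mmp10 and Wnt7b. Ifi202b, an interferon-inducible DNA-binding protein, stood at 835, 1247 and 109 against 1.09, 1.4 and 0.0175 (8.14 ± 0.89, adjusted p = 8.21e-05). Gbp2b, a guanylate-binding protein, stood at 383, 582 and 122 against 0.149 to 0.177 (8.02 ± 0.59, adjusted p = 8.08e-06). For Ifi202b and Gbp2b the BF10 libraries (70.8 to 446.5 and 72.1 to 284) lay with IL-10-Fc, as for H2-Ea. The Ctrl-IgG libraries (no more than 0.998 and 1.6) lay with aCSF1R, and what strain contributes to these differences was not tested. The 12 differences ran from 6.02 to 10.49.

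The 12 largest falls were Shisal2b, Rhox5, Fmr1nb, Acta1, Whrn, Tex13b, Prl2c2, Gsta2, Rsad2, Gpnmb, Klra4 and Nxf3. Shisal2b, at chr13:104845283-104863893, stood at 0.486, 1.35 and 0.701 in IL-10-Fc and at 985, 784 and 958 in aCSF1R (-8.97 ± 1.31, adjusted p = 0.000452). Rhox5, Fmr1nb, Tex13b and Nxf3 lie on the X chromosome, and Rhox5, a homeobox gene of the reproductive tract that some tumours express, stood at 1.13, 2.2 and 1.34 against 577, 466 and 606 (-7.76 ± 1.13, adjusted p = 0.000441). Klra4, a member of the Ly49 family of NK cell receptors, stood at 0 to 0.0853 against 33.8 to 48.5. Prl2c2 and Klra4 belong to families of near-identical copies, and the Ly49 family differs between strains, so their single values are uncertain.

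Among the most abundant called genes, Eef1a1, Lgals1, Rplp1, Rpl7, Tmsb4x and Rpl31 were higher and Rpl35a, Mt2, Eno1, Ly6e, Gnas and Sqstm1 lower. Replicates 1 and 2 of IL-10-Fc carried much of these rises. With IL-10-Fc replicate 3 alone in its group they shrank to 0.83 for Eef1a1, 2.1 for Lgals1, 0.73 for Rplp1, 0.87 for Rpl7, 1.74 for Tmsb4x and 1.05 for Rpl31. These rises were not called in that fit, and neither were the falls of Mt2 (-1.54), Eno1 (-0.63) and Gnas (-0.48). After correction for GC content and length Eno1 (-0.54) and Gnas (-0.44) were not called either. Lgals1, galectin-1, stood at 11790, 15170 and 4622 against 1035, 830.5 and 1324 (3.17 ± 0.61, adjusted p = 0.00241). Ly6e, an interferon-inducible surface protein, stood at 208, 148 and 316 against 996, 1012 and 1038 (-2.24 ± 0.34, adjusted p = 0.000545). Ribosomal protein genes lay in both sets, with Rpl7 higher by 2.52 ± 0.73 and Rpl35a lower by 2.65 ± 0.70, and for both the values in IL-10-Fc replicates 1 and 2 were several times those in replicate 3. All 7 genes of a list that the study drew up as raised in these samples under both IL-10-Fc and BF10 (among them Wnt7a, Mmp9, Elane and H2-DMb2) were called higher, which is no independent evidence of their direction.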

How the data were processed

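The authors deposited gene-level FPKM values (fragments scaled for gene length and library size, rounded) for 12 libraries of total tumour RNA made with a stranded mRNA kit. STAR 2.7.5a, RSEM 1.3.3 and DESeq2 1.30.0, and the builds GRCm38 and mm10, are credited to the submitters' processing notes, which give no roles. Groups came from the treatment label, and replicate numbers only name libraries. The FPKM of the libraries were divided by median-of-ratios size factors over 17397 genes, kept at 1 or more in at least 3 libraries, and tested as log2(value + 1) in limma 3.58.1 (R 4.3.3, trended variance, all 12 libraries in 4 groups) with Benjamini-Hochberg adjustment. Calls required adjusted p-values below 0.05 together with at least a 1.5-fold difference. FPKM hold no counts, so no interval or floor from depth is given. The fit was tested on simulated data. Members, gene lists and tests were chosen with earlier results of these data known. Named genes were list members and, among called genes without overlap of the groups and with a mean of at least 5 in the higher group, the 12 largest rises and falls and the 6 highest means in each direction. Other scalings, pseudocounts, filters, covariates and left-out libraries were tried. Promoter sequences came from RefSeq. Some list genes are not reported here by name.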

Additional observations from a re-analysis of the deposited data

How the results depend on the processing

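Across 20 alternatives no gene called in the 6 libraries was called in the opposite direction, and 88 of the 171 named and called genes kept their call in every one that tested them. Called genes numbered 5974 (2899 higher), 3794 (1864 higher) with a mean of at least 5 scaled FPKM, which tested fewer genes, and 10407 (5309 higher) with library weights, whose estimation did not converge; both the scaling by library sum (1368 higher) and the lack of scaling (1732 higher) moved the number of higher calls, and the cause was not tested. Leaving out 1 library gave 4051 to 8912 called and 1994 to 4587 higher, the largest counts being those without IL-10-Fc replicate 3. Replicate 3 alone in its group left 2465 called and 1387 higher, 116 called list members instead of 219, and the calls of 104 of the 171 named genes, in a fit that takes the lone library to vary like the other groups. Of the alternatives, the deposited scale and the library sum lost 26 and 34 of the named calls. Signs turned with the library sum for Entpd1 (-0.01), H2-DMb1 (-0.0013), Havcr2 (-0.14) and Psmb9 (-0.087), none of them called there. Genes not called in the report were called against the sign of their estimate as follows: with the library sum Ccl3 (-0.91), Ifit2 (-0.88) and Ldha (-0.60); with the FPKM sum as a covariate Ccl3 (-0.92), Ifit2 (-0.87) and Klrd1 (-1.01); with quantile normalization Ldha (-0.79); with library weights Csf1 (-0.65); after GC and length correction, chosen after seeing the data, Klrd1 (-0.77); and without the 4 libraries of high mitochondrial share, likewise chosen after seeing the data, Ccl3 (-1.07), Ifit2 (-1.01), Klrd1 (-1.26), Klrk1 (-0.77), Mmp14 (0.66) and Nos2 (0.98). No paired analysis was possible because the first number of the title codes is shared between the groups in 1 case alone (6), the second repeats within IL-10-Fc, and neither is explained; the replicate numbers used here only name libraries. FPKM carry no depth, so values near 0 have no counting error, and the treatment cannot be told apart from the strain-dependent and sex-linked transcripts that split the same libraries.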

Other observations

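The BF10 libraries formed neither group of the comparison above, but the scaling, the gene filter and the spread in the fit drew on them. A fit of the 6 compared libraries alone called 5403 of 14353 genes, against 5974 of 15707. BF10 replicate 3 held transcripts of both kinds that otherwise split the series: Xist stood at 20.0 scaled FPKM and H2-Ea at 468 there, beside Eif2s3y at 2.79 and Ddx3y at 1.11, which were at no more than 0.0597 and 0.0119 in BF10 replicates 1 and 2. Rsad2 stood at 44.5 in that library against 5.47 and 2.71 in the other BF10 libraries, and Gpnmb at 27.1 against 3.2 and 2.0. The values of Rsad2, Gpnmb, Eif2s3y and Ddx3y in it lay between those of the IL-10-Fc and the aCSF1R libraries, while Xist lay within the IL-10-Fc range and H2-Ea just below it. Squamous keratins and muscle transcripts were high in Ctrl-IgG replicate 3 as in aCSF1R replicates 1 and 2, with Krt13 at 291 and Acta1 at 263.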
